A study of Daphnia magna with 84 samples.

Results

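A set of 150 gene models of the water flea Daphnia magna had their highest mean level in animals taken at day 10 of an exposure to coal ash. They were chosen from the measured day means. The 40 most abundant gene models and the 3 libraries of concentration 0 at day 24 were left out, levels were expressed as log2(CPM + 1), where CPM is a model's share of the remaining counts scaled to 1000000, and each model was scored by its day 10 mean minus the highest mean of the other days. Of 27350 gene models, 11264 had a mean of at least 5 CPM and lay outside 3 scaffolds that the rule leaves out. Of these, 270 had a score above 1, and the 150 with the highest scores were kept. Their scores ran from 1.23 to 2.43 with a median of 1.47. The day profile below is therefore a description of how the set was chosen and carries no test.

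The study sequenced the RNA of single whole animals. Their food was the green alga C. reinhardtii, kept in a coal ash mixture before it was fed to them. Concentrations of the mixture are named by mercury alone (4, 1, 0.25, 0.12, 0.06 and 0.015 nM Hg/L, and 0), although the mixture holds other constituents too. For each concentration 3 animals were taken at days 6, 10, 17 and 24, which gives 84 libraries in 28 groups. The animals at concentration 0 carry the same treatment tag as the others in the labels and are taken as the unexposed group from their concentration. Strain, age at the start and number of mothers are not given in the labels. The labels say that eggs, embryos and neonates were counted for the experiment, but animals for sequencing were taken without being measured, and no brood status comes with the libraries.

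Female Daphnia moult throughout life, and in reproducing females each moult is coupled to the release of a brood and the laying of the next clutch into the brood pouch. Genes that serve the new cuticle, the ovary or the yolk are therefore switched on and off over a cycle of days, so that animals of one age can be at different points of it. RNA of a whole brooding female also contains RNA of the embryos she carries. These models have IDs with no names, so none is assigned to a tissue or process here.

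Libraries had between 7127253 and 27952023 counts in all (median 17553926), but the 40 most abundant gene models held 95.4% of all counts. The counts outside them are the depth behind every value here. They ran from 120113 to 1707867 in the 81 libraries used, with a median of 884716, and 7 libraries had under 300000. Among those 7 are 2 of the 3 animals of 4 nM Hg/L at day 6 and all 3 of 0.12 nM Hg/L at day 24. Level here means a share of these counts, so a model's CPM also moves when others take up more or less of the library. In RNA of whole animals, fewer cells that express a model and less of its RNA per cell cannot be told apart.

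The most abundant of the set was APZ42_013674 (scaffold00311, 721997 to 744710, 8 exons), with 1937 ± 1859 CPM (SD, n = 21) at day 10. In the 21 animals of day 10 it ran from 8.20 to 6177 CPM with a median of 1786. At day 6 it ran from 1.52 to 108.2 CPM with a median of 11.5, and 6 of the day 10 animals lay within that range, at 29.4 CPM or less. Days 17 and 24 were split: single animals reached 3773 and 3016 CPM while the medians were 32.3 and 23.1. This model alone made up 9.91% of the set's mean CPM at day 10, and the 5 most abundant made up 31.3%.

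The other 4 of these were APZ42_022676 (scaffold01361, 1687137 to 1690280, 4 exons), APZ42_021363 (scaffold01139, ending at 3061, 4 exons), APZ42_021265 (scaffold01068, 2697 to 5035, 4 exons) and APZ42_017533 (scaffold00687, 1476316 to 1477645, 4 exons). APZ42_022676 had 1353 ± 1287 CPM (SD, n = 21) at day 10 and 381 ± 505 CPM (SD, n = 21) at day 6. APZ42_021363 had 1208 ± 942 CPM (SD, n = 21) at day 10, and its median at day 17 was 219 CPM. APZ42_021265 had 1048 ± 849.5 CPM (SD, n = 21) at day 10 and 647 ± 815 CPM (SD, n = 21) at day 17. APZ42_017533 was of another kind: its mean of 569 CPM at day 10 came with a median of 61.5 and a highest animal of 7542. Per kilobase of exon the highest mean CPM at day 10 was 576, in APZ42_034404 (scaffold03376, 282435 to 283614, 3 exons), which is outside the 5 and was singled out after the values were seen. On that scale APZ42_013674, the longest model of the set with 14972 bases of exon, had 129.4. The median over the set was 33.4 mean CPM per kilobase.

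The highest score belonged to APZ42_026118 (scaffold02019, 99993 to 102555, 8 exons), at 2.43 on the log2 scale. Day 10 animals held it at 227 ± 196 CPM (SD, n = 21) and day 6 animals at 2.78 ± 7.73 CPM (SD, n = 21). At day 17 it had 50.8 ± 70.4 CPM (SD, n = 21) and at day 24 22.3 ± 50.2 CPM (SD, n = 18). In 10 of the 21 day 10 animals it was above the highest animal of any other day, the largest such number in the set. Over the 150 members the median of that number was 1. The day 10 median of a member was exceeded by 7 of the 60 animals of the other days, again as a median over members.

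The next scores were those of APZ42_013674 (2.43), APZ42_022276 (2.35), APZ42_016906 (2.26), APZ42_021363 (2.26), APZ42_022080 (2.17), APZ42_030656 (2.16), APZ42_033011 (2.16), APZ42_022522 (2.12) and APZ42_017552 (2.11). Of these APZ42_022522 (scaffold01361, 1120866 to 1122572, 7 exons) had the smallest spread at day 10, with an SD of 2.09 on the log2 scale, running from 2.67 to 1286 CPM with a median of 551. At day 6 its highest animal had 18.7 CPM. APZ42_022276 (scaffold01361, 135443 to 137802, 8 exons) was more uneven, running from 0 to 547 CPM with a median of 25 at day 10, and its next highest day was day 24. APZ42_033011 (scaffold03135, 106186 to 110590, 16 exons) and APZ42_017552 (scaffold00687, 1682323 to 1686680, 5 exons) had medians of 0.957 and 2.34 CPM at day 6, but the highest animals of that day had 415 and 699. APZ42_022080 (scaffold01348, 351145 to 352183, 6 exons) had at most 3.83 CPM at day 6 and a median of 38.4 at day 10.

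Over the 150, the median of the members' mean CPM was 7.29 on day 6, 50.6 on day 10, 21.4 on day 17 and 13.9 on day 24. Day 17 was the next highest day for 119 members, day 6 for 19 and day 24 for 12. Over the 11264 models that the rule could have chosen, the day with the highest mean apart from day 10 was day 17 for 5984, day 6 for 3463 and day 24 for 1817. Relative to day 10 the other days were lowest, as a mean log2 difference, in APZ42_026118 (-3.94), APZ42_017533 (-3.71) and APZ42_013674 (-3.66). They were highest in APZ42_022904 (-1.36), APZ42_033993 (-1.36) and APZ42_020931 (-1.38). APZ42_022904 (scaffold01361, 2402691 to 2406673, 1 exon) ran from 5.34 to 53.2 CPM with a median of 25.5 at day 10 and from 0.840 to 17.1 CPM with a median of 7.85 at day 6, with no animal at 0 on either day. The last 2 inside the limit of the rule were APZ42_021933 (score 1.2284) and APZ42_018880 (1.2283), and the first 2 outside were APZ42_033702 and APZ42_032407 (both 1.2247). The limit thus lies within a continuous run of scores.

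**Figure D1:**
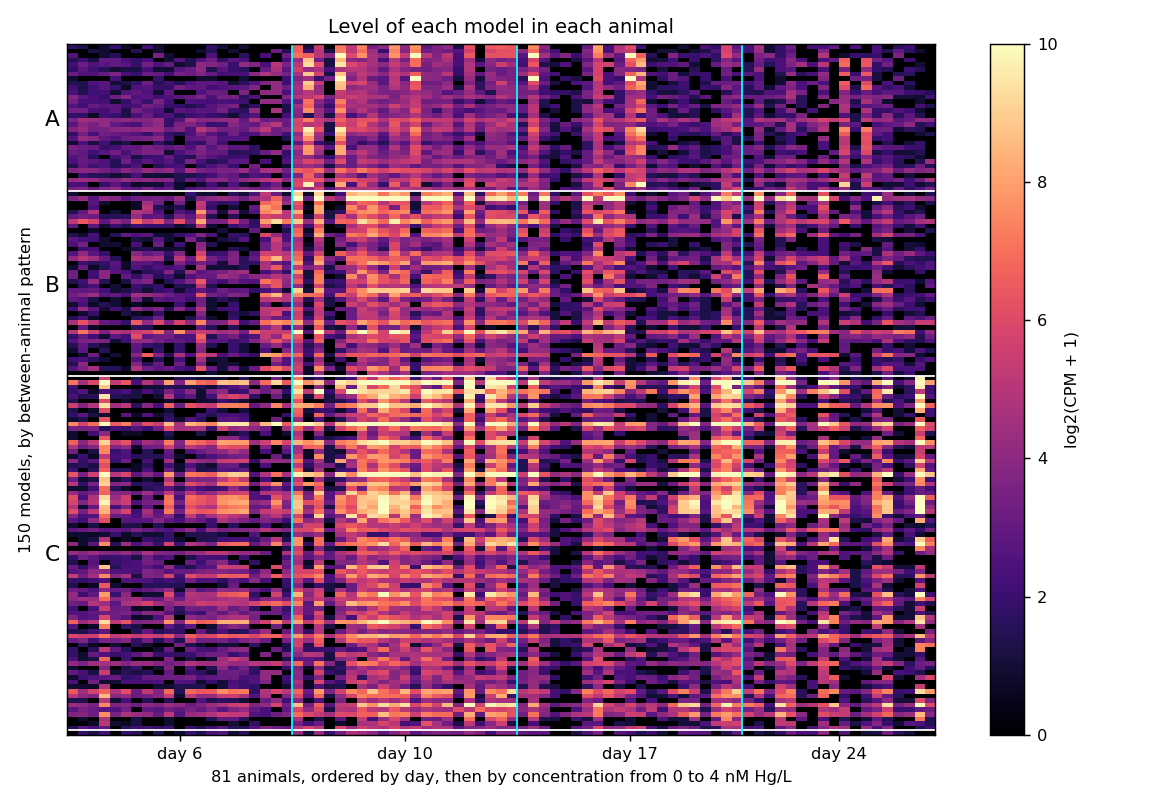
Level of each of the 150 models, as log2(CPM + 1) on the colour scale, in the 81 animals, ordered by day and within a day by concentration from 0 to 4 nM Hg/L. The blocks A, B and C are groups of models that vary together between animals; the day 10 block is bright in most columns, but 3 of its columns are dark, and bright columns occur at days 17 and 24.

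The summed level of the set was uneven between animals of one day. At day 10 the 150 models held from 0.0649% to 3.74% of the counts outside the 40 most abundant models, with a median of 2.14% (n = 21). At day 6 the share ran from 0.0933% to 1.56% with a median of 0.193% (n = 21). It ran from 0.0534% to 2.88% at day 17, with a median of 0.673% (n = 21), and from 0.0471% to 3.50% in the 18 exposed animals of day 24, with a median of 0.399%. A share of 1% or more was found in 17 of 21 animals at day 10, 1 of 21 at day 6, 8 of 21 at day 17 and 5 of 18 at day 24.

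The days therefore overlapped in both directions. At day 10, 3 animals had under 0.3%: replicate 1 at 0.015 nM Hg/L with 0.0649% (95% interval 0.0593 to 0.0709), replicate 1 at 1 nM Hg/L with 0.169% (95% interval 0.160 to 0.178) and replicate 3 at 1 nM Hg/L with 0.286% (95% interval 0.275 to 0.297). The intervals are exact binomial ones and cover counting error only. These libraries had 748700, 735108 and 900146 counts outside the 40 models, against a median of 900146 for the day, and none was among the 7 shallow ones. Replicate 2 at 1 nM Hg/L had the highest share of the day, 3.74%. Outside day 10, 14 of 60 animals held 1% or more. At least 75 of the 150 members stood at 10 CPM or more in 17 animals of day 10, in 10 of day 17, in 4 of day 24 and in 0 of day 6.

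**Figure D2:**
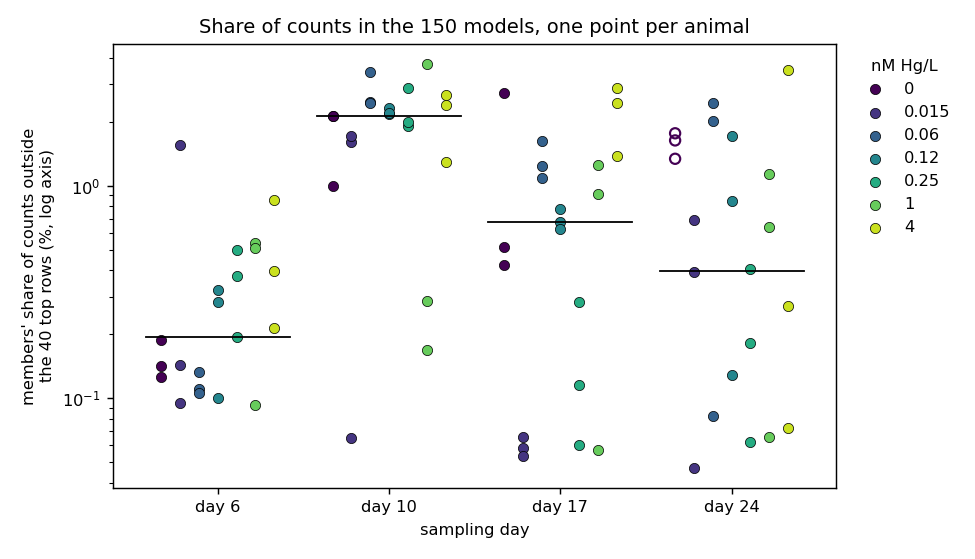
Share of the counts outside the 40 most abundant models that fell in the 150 models (log axis, percent), 1 point per animal, coloured by concentration, with a bar at the median of the day; hollow points are the 3 libraries of concentration 0 at day 24, which the choice of the models did not use. Day 10 has the highest median, 2.14%, and every day has animals under 0.3%.

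Split by concentration, day 10 had the highest mean of the days for 90.7% of the 150 members at 0.06 nM Hg/L, 90% at 0.25, 87.3% at 0.12, 69.3% at 1, 61.3% at 0.015 and 50% at 4. At concentration 0, where only days 6, 10 and 17 are compared, it was highest for 82%. The same share over all models that could have been chosen was between 21.4% and 37.0%. At 4 nM Hg/L, day 17 was the highest day for 54 members and day 6 for 21. Day 10 was highest at all 7 concentrations for 21 members and at 6 of them for 44. These counts use the same animals that chose the members and describe how evenly the concentrations contributed.

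Members varied together between animals. With each animal taken as its difference from the mean of its group of 3, the median Pearson correlation over all 11175 pairs of members was 0.49 among the 21 animals of day 10. Among the day 6 animals it was 0.06, at day 17 it was 0.25 and in the 18 animals of day 24 it was 0.39. For pairs of the 11114 other models that could have been chosen the medians were 0.11, 0.07, 0.02 and 0.06 for the days in turn, from the earliest to the latest. The correlations share libraries and depth and are given as a description.

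Clustering of the members by their differences from the day means gave 3 groups that are called A (32 models), B (40) and C (77) here, and 1 model, APZ42_014956, joined none. The groups were made from these animals and include the differences between concentrations, so they describe the set and nothing was tested with them. At day 10 the median correlation of pairs was 0.63 within A, 0.71 within B and 0.61 within C. Between B and C it was 0.58, but between A and B only 0.09 and between A and C 0.18. Among day 10 animals, B and C thus tended to be high together, and A less so. The split was not the same on the other days. In day 6 animals, pairs of B with C had a median correlation of -0.13, and pairs within A had 0.04. For day 17, A with C reached 0.33, close to the 0.37 of B with C, while A with B had 0.21. The day 24 animals gave 0.30 for B with C, against 0.12 for A with C and 0.20 for A with B.

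Single animals of day 10 show the split of that day. Replicate 2 at concentration 0 had a mean log2(CPM + 1) of 6.36 over the models of A and 1.68 over those of B. Replicate 2 at 0.015 nM Hg/L had 7.19 and 2.49, and replicate 3 at 0.12 nM Hg/L 6.25 and 3.03. These 3 animals had the highest means of A of the day, and their means of B were among the 6 lowest of the 21 animals. APZ42_013674, of group B, stood at 8.20, 15.3 and 12.3 CPM in them. APZ42_017533, of group A, stood at 99.5, 3169 and 7542 CPM. Their depths ran from 1059053 to 1707867 counts outside the 40 models, above the median of the day.

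**Figure D3:**
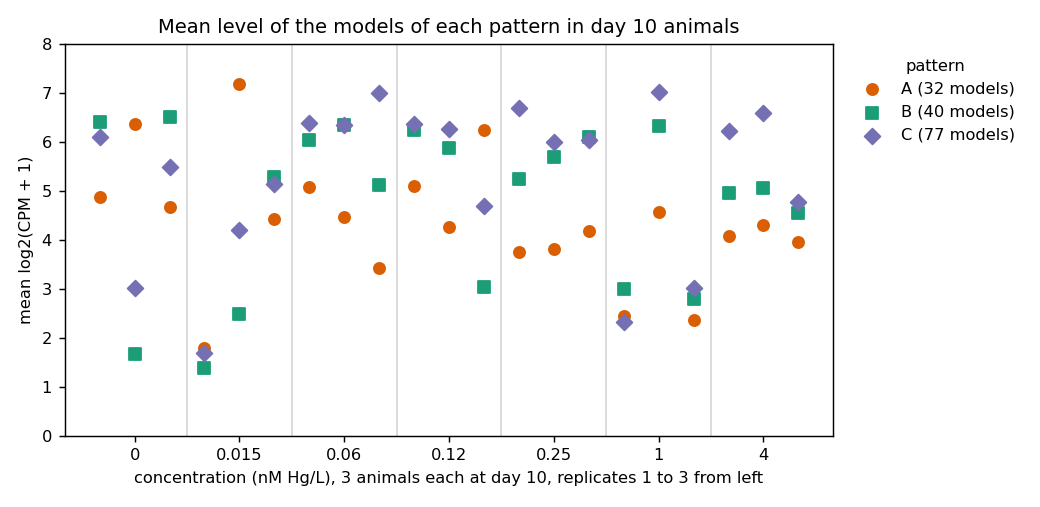
Mean log2(CPM + 1) over the models of groups A, B and C in each of the 21 animals of day 10, 3 animals for each concentration on the horizontal axis. B and C move together, A stands above both in replicate 2 at 0 and at 0.015 nM Hg/L and in replicate 3 at 0.12, and all 3 groups are low in replicate 1 at 0.015 and in replicates 1 and 3 at 1 nM Hg/L.

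The members that followed the others most closely at day 10 were APZ42_011032 (scaffold00007, 308373 to 311750, 4 exons), APZ42_016461 (scaffold00626, 698481 to 703462, 2 exons) and APZ42_021363, all of group C, with a mean correlation with the other members of 0.61 to 0.62 over 21 animals. APZ42_011032 ran from 5.34 to 933 CPM with a median of 419.7 at day 10 and APZ42_016461 from 25.4 to 529 CPM with a median of 235. The lowest mean correlations were those of APZ42_023926 (-0.04), APZ42_012744 (0.04) and APZ42_014990 (0.05), all of group A. APZ42_014990 (scaffold00512, 980246 to 994180, 4 exons) was the most even of them, from 7.67 to 68.2 CPM with a median of 27.2, with no animal of day 10 at 0.

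Group A held more single-exon models. Of its 32 models 16 had a single exon (50%), against 1 of 40 in B, 8 of 77 in C and 10.0% of the 11264 models that could have been chosen. The median length of exon was 1214 bases in A, 1808.5 in B and 2078 in C, and 2200.5 among the 11264. The 150 lay on 79 scaffolds or contigs. The most, 11, were on scaffold00868, of 213 models there that could have been chosen, and 9 of these were of group C. Scaffold01581 held 9, of which 6 were of group A. Scaffold00687 held 8, with APZ42_017533 and APZ42_017538 of group A lying 1476316 to 1479578 on it.

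In 15 stretches, 31 members lay next to each other with no other eligible model between them. The longest was 3 models, APZ42_018858 (scaffold00868, 1074316 to 1076399, 2 exons), APZ42_018856 (scaffold00868, 1076959 to 1077931, 3 exons) and APZ42_018848 (scaffold00868, 1078198 to 1080440, 3 exons), all on the minus strand. APZ42_018858, of group B, had 262 ± 229 CPM (SD, n = 21) at day 10 and at most 8.84 CPM at day 6. Its neighbours, both of group C, had 50.5 ± 58.5 CPM (SD, n = 21) and 58 ± 78.1 CPM (SD, n = 21), and the highest animal of day 6 had 421 and 121 CPM of them. Neighbours, overlapping models and near-identical copies can share reads in ways that the table does not show. This was not tested.

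The rule used day means and not the differences among concentrations within a day. The same animals enter both, however. A group that is low on a day other than day 10 lowers the mean of that day and can so raise a score. The tests below are therefore not independent of how the members were chosen. Each day was tested for any difference among its concentrations, with edgeR's quasi-likelihood F test over the 12624 models that passed a filter on low counts, Benjamini-Hochberg adjustment and a call at an adjusted p below 0.05. All 150 members passed the filter. The tests measure differences against the spread between single animals, 3 in each group. At day 10, 17 members were called (11.3%), against 9.21% of all models tested. At day 17, 82 were called (54.7%), against 7.08%. At day 6 there were 23 (15.3%), against 3.66%, and among the 6 exposed concentrations of day 24 there were 48 (32%), against 12% of all models. In this fit day 10, the day of their highest level, was the day on which the set's share lay nearest to that of all models. With limma-voom the shares were 28.7% against 21.8% at day 10, 54.7% against 22.8% at day 17 and 14.7% against 12.5% at day 6, and at day 24 the set lay below all models, at 4% against 9.02%. The rule picked models with large differences between animals of different days, and no value here shows the higher shares of the other days to be particular to the set.

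**Figure D4:**
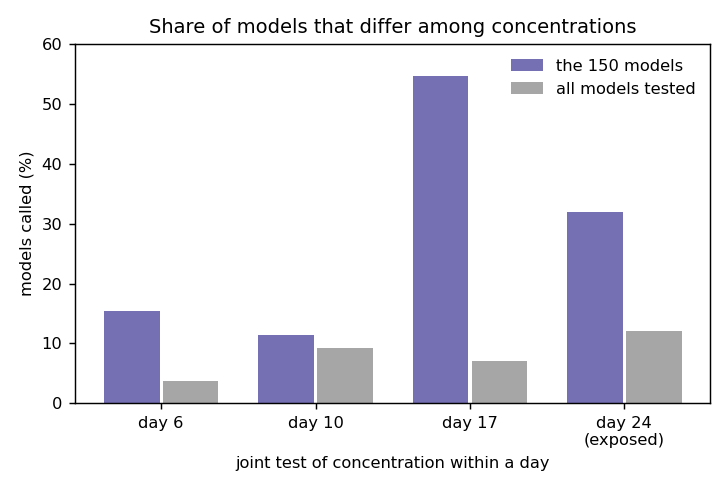
Percent of the 150 models, and of all 12624 models tested, that differed among concentrations at an adjusted p below 0.05 in edgeR's quasi-likelihood test, for each day. The bars of the 150 models stand at 15.3, 11.3, 54.7 and 32%, and those of all models at 3.66, 9.21, 7.08 and 12%.

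Of the 17 called at day 10, 15 were of group A, 2 of C and 0 of B, and 11 had a single exon. The groups were made from the same animals with the differences between concentrations included. Counts of called members by group, here and below, are therefore description only. The smallest p belonged to APZ42_017538 (scaffold00687, 1478333 to 1479578, 3 exons; edgeR, adjusted p = 3.02e-05). Its CPM at day 10 was 33.7, 5.6 and 4973 at 0.12 nM Hg/L and 9.35, 1062 and 11.5 at 0.015. In the 15 animals of the other 5 concentrations it lay between 1.11 and 29.5 CPM, so 2 animals stood far above all others. Its neighbour APZ42_017533 (edgeR, adjusted p = 0.00196) was high in the same 2, at 7542 and 3169 CPM, and at 211 or less in all others. APZ42_023927 (scaffold01581, 812015 to 813040, 1 exon; edgeR, adjusted p = 0.00107) had 16.9, 444 and 22.8 CPM at concentration 0, 2.67, 403 and 15.4 at 0.015 and 2.72, 5.80 and 1.11 at 1 nM Hg/L. The count was 3 when 1 nM Hg/L was left out of the comparison (2% against 0.887% of all models), 9 without replicate 1 of that group (6% against 1.94%) and 43 with limma-voom. When the spread was estimated from day 10 alone it was 1, or 0.667% against 1.81% of all models.

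Along the rank of concentration at day 10, 14 members fell and 4 rose, together 12% of the set against 10.2% of all models (5.45% falling, 4.79% rising). The 14 were all of group A and 12 of them had a single exon, while 9.62% of all eligible models that fell had one. APZ42_023927 fell by 0.79 per rank on the log2 scale (SE 0.16; edgeR, adjusted p = 0.0018), with 9.48, 13.7 and 6.22 CPM at 0.25 nM Hg/L and 17.1, 12.8 and 5.53 at 4. APZ42_007838 (contig48763, 1396 to 1810, 1 exon) had a log2 slope of -0.71 (SE 0.16) per rank (edgeR, adjusted p = 0.00405), and APZ42_023885 (scaffold01581, 674405 to 674880, 1 exon) one of -0.69 (SE 0.15; edgeR, adjusted p = 0.00374). For both, replicate 2 at 0 and at 0.015 nM Hg/L were the highest animals of the day. Without replicate 2 at concentration 0 none of the 150 was called by edgeR at an adjusted p below 0.05, against 0.545% of all models. Without replicate 2 at 0.015 nM Hg/L 4 were (2.67% against 4.49%), and without replicate 3 at 4 nM Hg/L 9 were (6% against 2%). With limma-voom 2 were called, a share of 1.33% that lay below the 5.66% of all models, and with day 10 fitted alone 5 were (3.33% against 3.48%).

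The 4 that rose were of group C. APZ42_015801 (scaffold00568, 397697 to 399824, 8 exons) had a log2 slope of 0.69 (SE 0.22) per rank (edgeR, adjusted p = 0.0315), with 26.2, 0 and 12.2 CPM at concentration 0 and 61.7, 30.7 and 31.8 at 4 nM Hg/L. All 3 animals at 0.015 nM Hg/L had 0 counts for it, so its fitted slope depends on the prior count. APZ42_023963 (scaffold01581, 1203582 to 1205666, 8 exons) had 23.4, 0 and 1.52 CPM at 0 and 60.8, 110.0 and 16.6 at 4 (log2 slope 0.57, SE 0.20, edgeR, adjusted p = 0.048). APZ42_021748 (scaffold01253, 538292 to 540576, 6 exons) had 17.8, 0 and 4.56 CPM at 0 and 72.8, 120.2 and 30.4 at 4 (log2 slope 0.57, SE 0.19, edgeR, adjusted p = 0.0402), so its animals at 4 nM Hg/L all lay above those at 0. These 3 were picked for the highest slopes among those called, and the number of models that separate in this way is not given here. The fourth was APZ42_017321. In at least 4 of the alternative fits listed under the processing, each of the first 3 missed the threshold. Without replicate 2 at 1 nM Hg/L, the animal with the highest share of the day, their slopes were 0.18, 0.0011 and 0.35 in that order, and none of the 150 was called as rising. Of the 21 fits that left out 1 animal, 6 lost the call of APZ42_015801, 14 that of APZ42_023963 and 10 that of APZ42_021748.

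Against concentration 0 at day 10, 11 members were lower at 1 nM Hg/L and 0 were higher, 7.33% of the set against 7.35% of all models (3.14% lower and 4.21% higher). All 11 were of group A, 10 had a single exon, and 6 lay on scaffold01581. The largest differences were those of APZ42_023927, at a log2 change of -5.35 (SE 1.25; edgeR, adjusted p = 0.0104), APZ42_007838, at -5.06 (SE 1.27; edgeR, adjusted p = 0.0136), and APZ42_023885, at -4.07 (SE 1.13; edgeR, adjusted p = 0.025). APZ42_007838 had 19.7, 479.5 and 39.5 CPM at 0 and 0, 11.6 and 2.22 at 1 nM Hg/L. APZ42_023885 had 60.9, 868 and 76.0 CPM at 0 and 10.9, 33.7 and 6.67 at 1 nM Hg/L. The groups did not overlap for either model. Both were picked for the size of their difference, and the number of models that separate in this way is not given here. In both, replicate 2 at concentration 0, the animal with A high and B low described above, stood far above the other 2 of its group. Without that animal, or without replicate 1 of the 1 nM Hg/L group, the test called no member and 0% of all models. Without replicate 3 of that group it called no member and 1.62% of all models, and without replicate 2 it called 17 members, 11.3% of the set and of all models alike. The fit of day 10 alone called no member and 1.26% of all models.

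None of the 150 was called at any of the other 5 concentrations against 0 at day 10, where edgeR called 0 of 12624 models. At an unadjusted p below 0.05 there were 20 members at 0.015 nM Hg/L, 17 at 0.06, 4 at 0.12, 18 at 0.25 and 22 at 4. Among all 12624 models the numbers were 943, 899, 223, 1412 and 1434 in the same order. At 0.25 nM Hg/L DESeq2 called 1 (0.667% against 0.246% of all models) and limma-voom 3 (2% against 1.41%). The median log2 change over the 150 was -0.80 at 0.015, 0.45 at 0.06, 0.03 at 0.12, -0.03 at 0.25, -0.48 at 1 and -0.31 at 4 nM Hg/L, and that over all models lay between -0.10 and -0.02.

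At day 17 the set differed among concentrations more widely. The 82 called members were 27 of group A, 9 of B and 46 of C, and all 17 of day 10 were among them. The overlap of the 2 days over all models is not given here. The 3 animals at 0.015 nM Hg/L held 0.0534% to 0.0653% of counts in the set, and those at 0.25 held 0.0604% to 0.283%. At 4 nM Hg/L the share was 1.38% to 2.88% and at 0.06 1.09% to 1.62%. At concentration 0 it was 0.426% to 2.73%, and its highest animal lay within the range at 4 nM Hg/L. The 0.015 and 4 nM Hg/L animals did not overlap. These 2 groups had the lowest and the highest mean share of the day and were singled out after the values were seen. The group mean was lowest at 0.015 nM Hg/L for 72% of the 150 members and highest at 4 for 63 and at 0.06 for 44. The same counts over all models are not given here. The order of the groups did not follow concentration. The depth outside the 40 models was 402931 to 818899 at 0.015 nM Hg/L and 410148 to 702727 at 4, so the low and the high group had similar depth.

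The smallest p at day 17 was that of APZ42_022036 (scaffold01348, 6437 to 8555, 2 exons; edgeR, adjusted p = 3.19e-06), of group A. It had 10.7, 178 and 1039 CPM at 0.12 nM Hg/L, 27.6, 27.2 and 11.2 at 0 and 0, 0 and 1.43 at 0.015. APZ42_017538 had 1.84, 2150.0 and 4.81 CPM at 0, 2.67, 1241 and 25.5 at 0.12 and 0, 3.82 and 0 at 4 nM Hg/L (edgeR, adjusted p = 1.01e-05). Over the 21 animals of the day the medians of these models were 2.44 and 2.67 CPM, far below their highest animals at 1039 and 2150.0 CPM. APZ42_017533 had 7337 CPM in replicate 2 at 0 and 1332 in replicate 2 at 0.12 (edgeR, adjusted p = 3.34e-05). For group C the highest group was 4 nM Hg/L, with a mean log2(CPM + 1) of 6.29 ± 0.47 over its models (SD, n = 3 animals), against 3.98 ± 1.48 at 0 and 1.55 ± 0.12 at 0.015. Without 0.015 nM Hg/L in the comparison 44 members were still called, against 2.91% of all models. Leaving out any 1 animal gave 62 to 94, while 4.92% to 8.27% of all models were called in these fits.

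**Figure D5:**
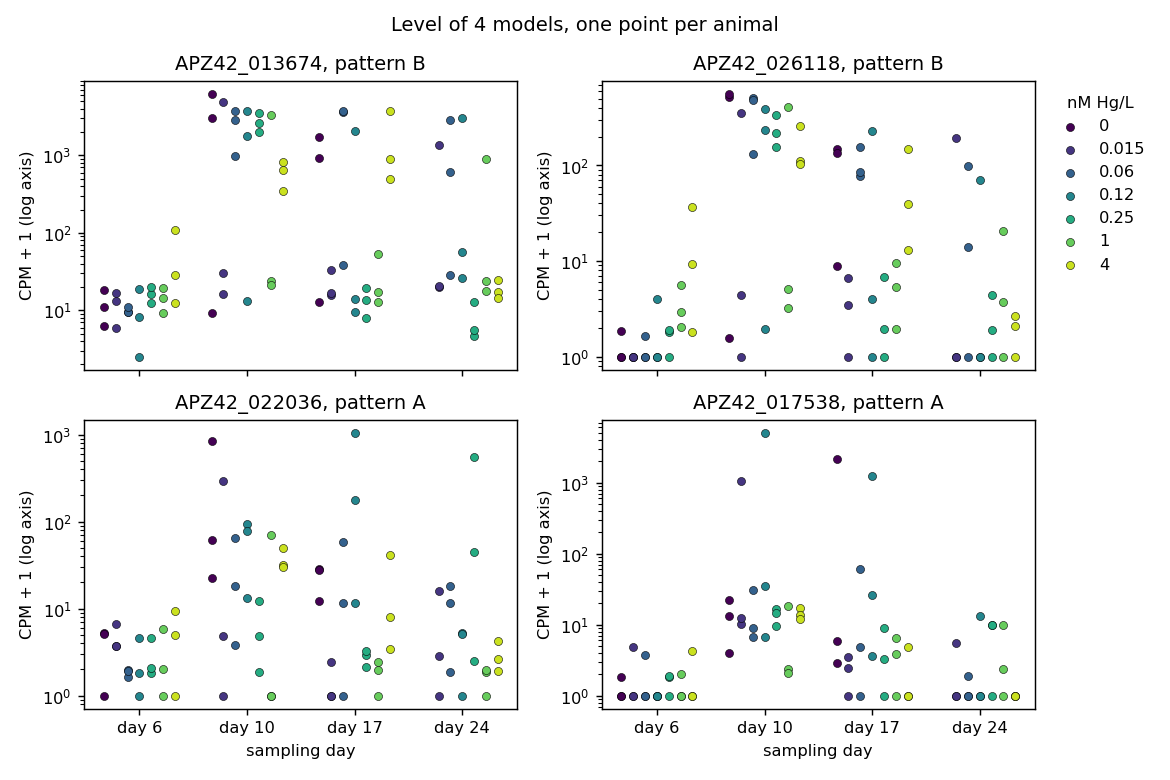
CPM + 1 on a log axis of 4 of the models in each animal, by day and coloured by concentration. APZ42_013674 and APZ42_026118, of group B, are high in most animals of day 10 and split into high and low animals at days 17 and 24, while APZ42_022036 and APZ42_017538, of group A, are high in few animals of any day.

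At day 24 the comparison covers the 6 exposed concentrations. Of the 48 members called, 14 were of group A, 3 of B and 31 of C. Among them 41 had also been called at day 17, which is 85.4% of those of day 24 and 50% of those of day 17. At day 17, 54.7% of the whole set was called, and the overlap over all models is not given here. APZ42_022036 again had the smallest p (edgeR, adjusted p = 3.76e-05), with 553, 1.49 and 44.1 CPM at 0.25 nM Hg/L and 0, 0.895 and 0.987 at 1. Without replicate 1 at 0.25 nM Hg/L it was no longer called. APZ42_015022 (scaffold00512, 1103001 to 1110258, 20 exons; edgeR, adjusted p = 5.79e-05) had 71.4, 136 and 133 CPM at 0.12 nM Hg/L, 6.42, 2.69 and 10.0 at 4 and 25.3, 2.98 and 2.26 at 0.25. APZ42_020931 (scaffold01019, 184831 to 188945, 5 exons; edgeR, adjusted p = 0.000258) had 37.8, 86.6 and 105 CPM at 0.12 and 2.14, 8.08 and 10.0 at 4. For both, 0.12 nM Hg/L was the highest group, and its 3 libraries had only 143349 to 242369 counts outside the 40 models. Without that concentration neither was called, and 23 of the 150 members were (15.3% against 1.2% of all models).

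At day 6, the day with the lowest median level of the members, the 23 called were 14 of group B and 9 of C, with 0 of A and 0 with a single exon. The highest group was 4 nM Hg/L for 57 members, and the same count over all models is not given here. APZ42_011060 (scaffold00007, 402659 to 413194, 25 exons; edgeR, adjusted p = 0.000179) had 145.3, 366 and 31.3 CPM at 4 nM Hg/L and 8.48, 13.9 and 18.7 at 0. APZ42_022329 (scaffold01361, 352915 to 354543, 5 exons; edgeR, adjusted p = 0.000262) had 298, 233 and 91.6 CPM at 4 and 0, 0.818 and 8.67 at 0. APZ42_016906 (scaffold00642, 1393513 to 1394630, 6 exons; edgeR, adjusted p = 0.00269) had 110.0, 158.2 and 19.0 CPM at 4 and 0, 0 and 5.34 at 0. In each of the 3 models every animal at 4 nM Hg/L lay above every animal at 0. They were picked for the smallest p of the day, and the number of models that separate in this way is not given here. Replicates 1 and 2 at 4 nM Hg/L were the shallowest libraries of the day, with 254617 and 120113 counts outside the 40 models, and the third had 1212139. Over the models of group B the mean log2(CPM + 1) was 4.41 ± 0.70 at 4 nM Hg/L (SD, n = 3) and 2.28 ± 0.35 at 0, and replicate 3 alone stood at 3.63.

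The calls of day 6 rested on few libraries. When 4 nM Hg/L was left out 4 members were called (2.67% against 1.28% of all models). When libraries with under 300000 counts outside the 40 models were left out 2 were, and the set's 1.33% then lay close to the 0.945% of all models. Without replicate 1 or 2 at 4 nM Hg/L 11 were called (7.33% against 2.39% and 2.1%), and without replicate 1 at 0.015 nM Hg/L 9 were (6% against 2.95%). That last animal had the highest share of day 6, 1.56%, and its level was in group C, at 5.65 against 2.16 and 2.71 in the other 2 of its group. Over the 4 days, 51 members were called on none, 48 on 1, 32 on 2, 18 on 3 and 1 on all 4. Without the same counts over all models, which are not given here, this says nothing particular about the set.

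The slope on concentration rank at day 10 was also compared with the mean of the slopes at days 6 and 17. It differed for 2 members (1.33%), against 0.547% of all models tested, and was lower at day 10 for both (0.253% of all models were lower and 0.293% higher). APZ42_030656 (scaffold02850, 846804 to 848754, 6 exons) had 247, 133 and 0 CPM at 4 nM Hg/L and 0, 0 and 4.00 at 0 on day 6. On day 10 it had 3.43, 5.12 and 2.76 CPM at 4 and 54.4, 0.586 and 286 at 0, and the groups overlapped on both days. Its slopes differed by -1.18 (SE 0.30) on the log2 scale per rank (edgeR, adjusted p = 0.0461). APZ42_023889 (scaffold01581, 677327 to 678567, 2 exons) had a difference of -0.74 (SE 0.19; edgeR, adjusted p = 0.0499), with 24.4, 314 and 16.7 CPM at 0 and 12, 17.9 and 15.2 at 4 on day 10. In both, 1 of the 21 groups compared had 0 counts in all 3 animals, so these values depend on the prior count. Both calls lay close to the threshold, and with any of 7 alternative fits neither held. Leaving out single animals moved the count by over 1.5 times in 57 of 63 fits. The share of all models called in the 63 fits ran from 0.0306% to 1.95%.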

How the data were processed

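Per the labels' protocols, RNA of single animals was depleted of ribosomal RNA and turned into strand-marking libraries. Per the submitters' processing notes, STAR 2.7.5b was the aligner. How reads were counted, with which strand setting, annotation or genome build, is not given in the sources used here. Values are raw counts for each gene model, as the authors deposited them, and the columns beside them, per the file headers, give the exons on the scaffolds from which the coordinates are taken. It names no genes, and 0 of its 27350 IDs matched the RefSeq gene table of ASM2063170v1.1, so no sequence or gene role is given. Groups come from the concentration and day in the labels. Accession order gave the replicate numbers, which pair nothing. The title of replicate 3 of 0.06 nM Hg/L at day 24 carries a number from the range of the 0.12 nM Hg/L titles, and 1 title number is on 2 libraries of 0.12 nM Hg/L, at days 6 and 24. All were kept as labelled, and 0 pairs of libraries were identical.

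The 40 rows with the highest summed counts and the 3 libraries of concentration 0 at day 24 were left out. CPM was taken over the remaining rows with a pseudocount of 1 on the log2 scale. Members, lists, groups A to C and most tests were chosen with earlier results of these data known. Concentrations were tested within days with edgeR 4.0.16 (R 4.3.3): filterByExpr at a minimum count of 10 (12624 models), TMM scaling, 1 mean for each of 27 groups (54 residual degrees of freedom), the quasi-likelihood F test with robust shrinkage and Benjamini-Hochberg adjustment over all models tested, called below 0.05. Each contrast was adjusted on its own. SEs were derived from the log2 change and its F. The slope uses ranks 0 to 6. The code was tested on simulated data. Groups A to C come from average linkage on 1 minus the correlation of differences from day means, cut at 4. Named models are the 5 highest at day 10, the 10 highest scores, the 2 on each side of the limit, the 3 with the smallest p of each joint test, the 3 highest and lowest of each single contrast among those called, the longest stretch, and the 3 at each end of the correlations and of the difference between other days and day 10. Other models named were chosen after their values were seen.

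Alternatives were DESeq2 1.42.0, its size factors, limma-voom with quality weights (limma 3.58.1), the older edgeR fit, all rows kept, all 84 libraries, no filter, only the days compared, and fits with 1 library fewer. Added after the data had been seen were fits without the libraries under 300000 counts outside the 40 rows, fits with log2 of that depth as a covariate, and joint tests with 1 concentration fewer.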

Additional observations from a re-analysis of the deposited data

Results flagged for a closer look

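The slope on concentration rank at day 10 differed from the mean of the slopes at days 6 and 17 for 2 members, by edgeR's test of the difference itself. For APZ42_030656 the difference was -1.18 on the log2 scale per rank, and over the alternatives its adjusted p ran from 0.0258 to 1. For APZ42_023889 the difference was -0.74, and its adjusted p ran from 0.0258 to 0.317. Both changes were lower at day 10.

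The 3 libraries of concentration 0 at day 24 took no part in choosing the members or in the comparisons. The 150 models held 1.34% of counts outside the 40 most abundant models in replicate 1, 1.63% in replicate 2 and 1.77% in replicate 3. These libraries had only 33522, 11869 and 19535 such counts, and the exact 95% intervals, which cover counting error only, were 1.22 to 1.47%, 1.41 to 1.88% and 1.59 to 1.96%. All 3 lay above the median of the exposed animals of that day, 0.399%, and below their highest, 3.50%.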

How the results depend on the processing

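No paired analysis was possible because the replicate numbers follow accession order and the labels pair no animals. Under the alternatives other than leaving out 1 animal, 96 counts and scores kept within 1.5 times of the value reported or within its spread, 33 did not, and no direction reversed. Percentages are shares of the members tested against shares of all models in the same fit. At day 10 the joint test called 17 members (11.3% against 9.21%), 3 without 1 nM Hg/L (2% against 0.887%), 43 with limma-voom (28.7% against 21.8%) and 1 with only that day fitted (0.667% against 1.81%). At day 6 it called 23 (15.3% against 3.66%), but 4 without 4 nM Hg/L (2.67% against 1.28%), 6 with depth as a covariate (4% against 1.7%), 14 with no filter (9.33% against 1.46%), 8 with the older fit (5.33% against 2.3%), 10 with only that day (10.8% against 2.14%) and 2 without shallow libraries (1.33% against 0.945%). At day 17 it called 82 (54.7% against 7.08%), and 44 without 0.015 nM Hg/L (29.3% against 2.91%). At day 24 it called 48 (32% against 12%), but 23 without 0.12 nM Hg/L (15.3% against 1.2%), 22 with depth as a covariate (14.7% against 2.7%), 29 with the older fit (19.3% against 7.43%) and 6 with only that day (5.83% against 2.85%). With limma-voom it called 6 at day 24, and the set then lay below all models (4% against 9.02%). That day could not be fitted without shallow libraries, since 0.12 nM Hg/L lost all animals. The slope at day 10 called 18 (12% against 10.2%), 2 with limma-voom (1.33% against 5.66%) and 5 with only that day (3.33% against 3.48%), so that the set's share lay below that of all models in both. The difference of slopes called 2 (1.33% against 0.547%), 6 with DESeq2 (4% against 1.92%) and 1 with limma-voom (0.667% against 0.982%). It called none by edgeR with all 84 libraries, all rows, depth as a covariate, no filter, the older fit or no shallow libraries. In those fits 0.0669% to 0.504% of all models were called. At an unadjusted p below 0.05 there were 29 members and 2032 of all 12624 models in the fit reported. For 1 nM Hg/L against 0 there were 11 (7.33% against 7.35%), 6 with all rows or no filter (4% against 6.39% and 1.99%), 7 with depth as a covariate or the older fit (4.67% against 7.47% and 5.83%) and 0 with only that day (against 1.26%). For 0.25 nM Hg/L DESeq2 called 1 (0.667% against 0.246%) and limma-voom 3 (2% against 1.41%). The causes were not tested, except that fits of only the days compared tested fewer members at days 6 and 24.

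Leaving out 1 animal at a time gave 9 to 25 members at day 10, against 1.94% to 11.5% of all models. At day 6 it gave 9 to 24 (2.1% to 5.53% of all models) and at day 17 62 to 94 (4.92% to 8.27%). At day 24 it gave 32 to 62 (6.54% to 15.3%). The slope had 0 to 26 (0.545% to 13%) and the difference of slopes 0 to 8 (0.0306% to 1.95%). For 1 nM Hg/L there were 0 to 17 (0% to 11.3%) and for 0.25 nM Hg/L 0 to 1 (0% to 0.298%). The ends of the 2 ranges can come from different fits. The rule chose 88 of the members again at a minimum of 20 CPM and more under each of the other alternatives, with 132 to 150 when 1 animal was left out. The median score of 1.47 ran from 1.39 to 1.62 with 1 animal left out and from 1.45 to 1.70 with other settings. DESeq2's likelihood ratio test was not run for the joint tests. Depth outside the 40 rows limits low values most in the 7 libraries under 300000 counts.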

Other observations

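In the 3 shallow libraries of concentration 0 at day 24, group A had a mean log2(CPM + 1) of 4.34 in replicate 3, against 1.24 and 1.05 in replicates 1 and 2, while group B had 1.29 in replicate 3 and 2.21 and 2.27 in the others. Group C stood between 3.33 and 3.71 in all 3. APZ42_013674, of group B, had 184, 42 and 6 counts in replicates 1, 2 and 3, and 85, 96 and 84 of the 150 models had none.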
